A study of Mus musculus with 6 samples.

Results

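Endothelial cells line every blood vessel, and a set of genes that they express was followed here in RNA from the cortical bone of mouse tibiae. The set was a list of 44 gene symbols chosen by name, of which 43 were found by name among the 25721 genes of the deposited comparison table. The remaining symbol, Eltd1, is the older name of Adgrl4, which is among the 43. All 43 genes passed the filter on low counts that left 15609 genes for testing. By the classes used below, 37 genes were pan-endothelial, 2 were sinusoidal (Stab2 and Flt4) and 4 were arterial (Gja4, Gja5, Efnb2 and Gkn3).

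RNA came from wildtype mice that received either a diet with 0.2% adenine by weight or a control diet, from 8 weeks of age for 4 weeks. Adenine feeding damages kidney tubules and serves as a model of chronic kidney disease. There were 3 libraries per diet, called control 1 to 3 and adenine 1 to 3, and the labels do not say whether each came from a separate mouse, so p-values measure the spread between these libraries, which may be technical. The bones were cleaned, frozen, cut at both ends and flushed of marrow before the shaft was pulverised, so that the RNA is that of all cells left in and on it. Whether fewer endothelial cells or less RNA per endothelial cell lies behind a lower level cannot be told apart in such bulk samples.

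Bone vessels are fed by arteries and arterioles, branch into capillaries and drain through wide, thin-walled sinusoids that in long bones lie mainly in the marrow. Endothelial cells are held together by VE-cadherin (Cdh5), PECAM-1 (Pecam1) and claudin-5 (Cldn5), and are maintained by vascular endothelial growth factor (VEGF) acting on its receptors and by angiopoietin acting on Tie2, the product of Tek. Notch signalling from the ligand Dll4 favours arterial identity, and stabilins, the products of Stab1 and Stab2, are scavenger receptors of sinusoids, with Stab1 also made by macrophages.

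The deposited counts summed to between 9977694 and 14598010 per library. Spearman correlations of log2 CPM (counts scaled to library size) were 0.900 to 0.959 within the diets and 0.815 to 0.954 between them. Adenine 1 carried the most kidney tubule RNA, with a summed level of 14 tubule genes of 2424 CPM against 89.4 to 289 CPM in the control libraries, 932 CPM in adenine 2 and 122 CPM in adenine 3. Skeletal muscle RNA also varied, the summed level of 16 muscle genes being 66940, 25413 and 108900 CPM in control 1 to 3 and 3703, 93418 and 7311 CPM in adenine 1 to 3. Defining endothelial markers were plainly present, since Pecam1, Cdh5 and Cldn5 had mean levels of 45.8, 32.8 and 45.8 FPKM (the authors' deposited unit, which is scaled to gene length and depth) in the control group.

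Most endothelial genes had lower values on the adenine diet, whereas Stab1 and the sinusoidal Stab2 had positive fold changes and the sinusoidal Flt4 a value near 0. A negative log2 fold change was measured for 41 of the 43 genes (50% of all 15609 genes tested), and the median was -0.998, against -3.85e-07 over all genes tested. In 30 of the 43 genes every adenine library lay below every control library, which held for 8.86% of all genes tested. In 1 gene, Stab1, every adenine library lay above (7.68% of all genes).

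Over all genes, edgeR's quasi-likelihood test with Benjamini-Hochberg adjustment passed 0 of the 43 genes and 0% of all genes in either direction, the smallest adjusted p of any gene being 0.169. At an unadjusted p under 0.05, 32 of the 43 were lower and 0 higher, against 6.49% and 4.22% of all genes. The authors' deposited table, made with another test on the same counts, called 13 of the 43 lower and 0 higher at an adjusted p under 0.05, against 0.937% and 0.467% of its 25721 genes, or 1.43% and 0.666% of the 15609 genes tested here. The 32 became 21 without adenine 1 and 21 without adenine 3, when the share of all genes was 4.02% and 4.35%, and 14 without control 3 and adenine 1 together (2.32% of all genes). Without adenine 2, 8 of the 43 passed over all genes, namely Cdh5, Tek, Mmrn2, Icam2, Nos3, Ramp2, Gkn3 and Cd34, against 1.82% of all genes in the lower direction.

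**Figure D1:**
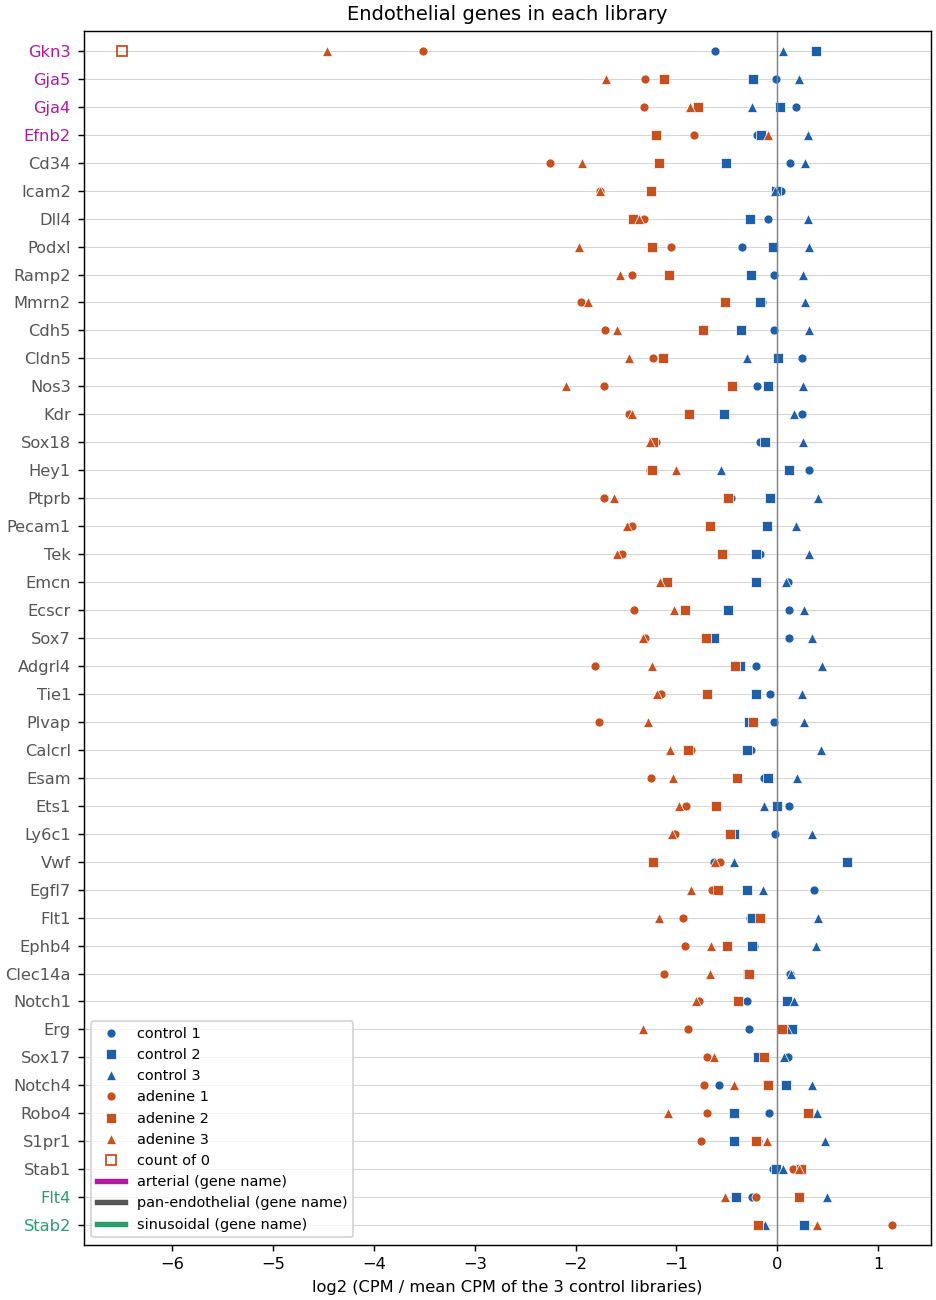
Each row is an endothelial gene and each symbol a library, placed at the log2 ratio of its CPM to the mean of the 3 control libraries. Gene names are coloured by class, and the open square marks the count of 0 for Gkn3 in adenine 2. The adenine symbols lie left of all control symbols in 30 rows, and the Stab1 row has them on the right.

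All 9 genes grouped here as junction and surface adhesion proteins had adenine libraries below every control library (8.86% of all genes). All were lower at an unadjusted p under 0.05 (6.49% of all genes), with a median log2 fold change of -1.27. The diets overlapped for Plvap, Clec14a and Robo4, membrane proteins placed in another group below. The authors' deposited table called 7 of the 9 lower (0.937% of its genes). Pecam1, the adhesion molecule used as the general endothelial marker CD31, stood at 283, 282 and 344 CPM in control 1 to 3 and at 112, 190.4 and 108 CPM in adenine 1 to 3. Cdh5 measured 143, 114 and 183 CPM on the control diet against 44.8, 88.1 and 48.6 CPM on the adenine diet. In these genes adenine 2 was the highest adenine library and came closest to the controls. The log2 fold changes were -1.15 (SE 0.31) for Pecam1 and -1.28 (SE 0.34) for Cdh5, with edgeR adjusted p of 0.291 and 0.281 over all genes, while the authors' deposited table gave 0.0448 and 0.0475.

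Cldn5, the tight junction claudin of vessels, had levels of 81.9, 69.6 and 56.1 CPM in the control libraries and 29.5, 31.6 and 24.9 CPM in the adenine libraries. For Emcn, the sialomucin endomucin of capillaries and veins, the values were 54.8, 43.9 and 54.2 CPM against 23.5, 23.9 and 22.8 CPM. The adenine libraries were nearly level with each other in these genes, unlike in Pecam1 and Cdh5. Cldn5 differed by -1.27 (SE 0.23) and Emcn by -1.12 (SE 0.20) on the log2 scale, each with an edgeR adjusted p of 0.180 over all genes and adjusted p of 0.00933 and 0.0207 in the authors' deposited table.

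Icam2, an adhesion ligand for leukocyte integrins, was nearly level across the controls at 32.0, 30.8 and 30.7 CPM, against 9.24, 13.1 and 9.24 CPM in the adenine libraries. The groups were far apart, and its log2 fold change of -1.57 (SE 0.24) had the smallest p of the 43 genes (edgeR adjusted p = 0.169 over all genes; 0.00137 in the authors' deposited table). Cd34, a sialomucin of vessels that blood progenitors also carry, measured 120.4, 77.5 and 133 CPM in the controls and 23.1, 49.0 and 28.9 CPM on adenine, a log2 fold change of -1.71 (SE 0.35). Podxl, a related sialomucin also made by kidney podocytes, had 118, 146 and 187 CPM against 72.1, 63.6 and 38.5 CPM, a log2 fold change of -1.37 (SE 0.31). No adenine library of Cd34 or Podxl reached a control value. Ecscr, a small endothelial surface protein, had 24.6, 16.3 and 27.5 CPM against 8.50, 12.1 and 11.2 CPM, a log2 fold change of -1.11 (SE 0.29). Esam, an adhesion molecule that platelets share, had a log2 fold change of -0.85 and was the smallest difference among these 9 genes.

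Kdr, which encodes the main signalling receptor for VEGF, measured 78.9, 46.1 and 75.0 CPM in the controls and 24.0, 36.4 and 24.6 CPM on adenine. Tie1, an orphan partner of Tie2, had 95.2, 85.9 and 118 CPM against 44.9, 61.4 and 43.6 CPM. Tek had 47.0, 45.7 and 65.9 CPM against 18.1, 36.2 and 17.6 CPM. No adenine library reached the control range in these genes, and adenine 2 was again the highest of its group. Log2 fold changes were -1.24 (SE 0.29) for Kdr, -0.998 (SE 0.24) for Tie1 and -1.14 (SE 0.34) for Tek, of which the authors' deposited table called Kdr (adjusted p = 0.0475). Ptprb, the vascular phosphatase that dampens Tie2, had -1.16. Flt1, the VEGF decoy and signalling receptor, had -0.69 (SE 0.33), and its 75.0 CPM in adenine 2 lay above control 1 and control 2. Of the 6 receptors and phosphatases, 4 were lower at an unadjusted p under 0.05 (6.49% of all genes). The exceptions were Flt1 and the sinusoidal receptor Flt4.

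Among the transcription factors 3 of 5 were lower at an unadjusted p under 0.05 (6.49% of all genes). Sox18, a Sox factor of vessel development, had 36.9, 38.2 and 49.6 CPM in the controls and 18.1, 17.6 and 17.3 CPM on adenine, the adenine libraries being almost equal. Ets1, which lymphocytes also express, had 72.4, 66.7 and 61.1 CPM against 35.7, 43.7 and 33.9 CPM. Sox18 differed by -1.23 (SE 0.21) and Ets1 by -0.82 (SE 0.20), and the authors' deposited table called Sox18 (adjusted p = 0.0148) and not Ets1 (0.166). Sox7 had -1.09, whereas Erg (-0.61, SE 0.37) and Sox17 (-0.46, SE 0.24) overlapped between the diets.

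Dll4, the Notch ligand of arterial and sprouting endothelium, measured 29.7, 26.3 and 39.1 CPM on the control diet and 12.7, 11.8 and 12.2 CPM on the adenine diet. Hey1, a target of Notch, had 23.4, 20.4 and 12.8 CPM against 7.86, 7.98 and 9.39 CPM. Their groups did not overlap, and the log2 fold changes were -1.38 (SE 0.24) and -1.17 (SE 0.31), with Dll4 called in the authors' deposited table (adjusted p = 0.00987) and Hey1 not (0.131). Among the receptors, Notch1 had -0.64 (SE 0.24) with groups that did not overlap and Notch4 had -0.39 (SE 0.30) with groups that did. Ephb4, the venous receptor of ephrin-B2, had -0.68 (SE 0.25).

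Of the receptors and enzymes that set vessel tone and permeability, 4 of 5 were lower at an unadjusted p under 0.05 (6.49% of all genes). Ramp2 and Calcrl together form the adrenomedullin receptor. Ramp2 stood at 40.8, 34.9 and 49.7 CPM in the controls and at 15.3, 19.8 and 14.2 CPM on adenine, and Calcrl at 27.9, 27.2 and 45.2 CPM against 18.5, 18.1 and 16.0 CPM. Both subunits were lower in every adenine library, with log2 fold changes of -1.34 (SE 0.24) and -0.93 (SE 0.27), and the authors' deposited table called Ramp2 (adjusted p = 0.0107). Nos3, the endothelial nitric oxide synthase, had -1.25 (SE 0.44) and Adgrl4, an adhesion receptor, -1.05 (SE 0.39). S1pr1, the sphingosine 1-phosphate receptor that lymphocytes also use, had -0.33 (SE 0.32) with overlapping groups.

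The 6 genes grouped as secreted or matrix-facing had a median log2 fold change of -0.73, although Plvap, Clec14a and Robo4 are membrane proteins. Of the 6, 4 were lower at an unadjusted p under 0.05 (6.49% of all genes). In 2 the diets did not overlap, with adenine below (8.86% of all genes). Vwf, which encodes the clotting protein von Willebrand factor, had 119, 297 and 136 CPM in the controls and 124, 78.4 and 120.2 CPM on adenine. Control 2 alone was high, and control 1 lay below adenine 1 and adenine 3. Its log2 fold change was -0.77 (SE 0.40). Megakaryocytes and platelets also make Vwf: their 12 marker genes summed to 2699 CPM in control 2, against 611 and 707 CPM in control 1 and control 3 and 455 to 1774 CPM on adenine, with 0 of 11 tested markers at an unadjusted p under 0.05 in either direction, and their part in the Vwf values was not tested. Mmrn2, a matrix ligand of Clec14a, had -1.29 (SE 0.41), Plvap, the diaphragm protein of fenestrae, -0.95 (SE 0.41), Egfl7 -0.69 (SE 0.25), Clec14a -0.65 (SE 0.28) and Robo4, a guidance receptor that stabilises vessels, -0.37 (SE 0.40).

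All 4 arterial genes had negative fold changes (50% of all genes), 3 of them at an unadjusted p under 0.05 (6.49% of all genes). Gkn3 had the largest difference of the 43 genes. Gkn3 (ENSMUSG00000030048, chromosome 6, 87360238 to 87365917 in the files' coordinates), a gastrokine gene that marks arterial endothelium in mouse, was covered by 106, 173 and 159 reads in control 1 to 3 and by 11, 0 and 7 reads in adenine 1 to 3. These counts correspond to 7.60, 15.2 and 12.1 CPM against 1.02, 0 and 0.526 CPM, so that the adenine libraries ran from none detected to far below the lowest control. With 3 reads taken as the limit that a count of 0 allows in adenine 2, the control mean of 11.6 CPM was at least 36.9-fold higher than that library. The fitted log2 fold change was -4.45 (SE 0.87; edgeR adjusted p = 0.180 over all genes), and the authors' deposited table gave an adjusted p of 2.86e-06. Without adenine 2 it was -3.91 (SE 0.58).

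The arterial set also holds the gap junction genes of vessels. Gja5, which encodes connexin 40, measured 32.0, 27.3 and 37.6 CPM in the controls and 13.0, 14.8 and 9.91 CPM on adenine. Gja4, which encodes connexin 37, had 34.8, 31.2 and 25.7 CPM against 12.2, 17.7 and 16.7 CPM. Neither had an adenine library within the control range. The log2 fold changes were -1.36 (SE 0.25) and -0.97 (SE 0.25), and the authors' deposited table called Gja5 (adjusted p = 0.0143) and not Gja4 (0.157). Reads where Gja5 overlaps Gpr89 on the opposite strand cannot be told apart with certainty, 939 being assigned to Gpr89 and 1665 to Gja5. Efnb2, the arterial ligand ephrin-B2, had 30.5, 31.5 and 43.4 CPM against 19.9, 15.2 and 33.0 CPM. Adenine 3 lay among the controls, and the log2 fold change of -0.63 (SE 0.33) had an unadjusted edgeR p above the threshold. The median of the 4 arterial genes was -1.17, beside -1.05 for the 37 pan-endothelial genes. Wider classes counted Sox17, Dll4, Notch1, Notch4, Hey1 and Ly6c1 as arterial and Stab1 as sinusoidal. Their medians were -0.896 for 10 arterial and -1.10 for 30 pan-endothelial genes. Without Gkn3, a setting chosen after seeing the data, the arterial median was -0.973. The order of these classes thus depends on how they are drawn.

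Neither sinusoidal gene differed between the diets by more than the spread between libraries. Stab2 (ENSMUSG00000035459, chromosome 10, 86677062 to 86843889 in the files' coordinates), the hyaluronan scavenger receptor of sinusoids, measured 11.9, 16.2 and 12.5 CPM in the controls and 29.8, 11.9 and 17.8 CPM on adenine. Adenine 1, the library with the most kidney tubule RNA, was the highest. Adenine 2 was as low as the lowest control, so the groups overlapped. Stab2 had a log2 fold change of 0.55 (SE 0.37, edgeR adjusted p = 0.597). The part of kidney RNA was examined only as a term in the fit. With the tubule level as that term, the median of the 2 sinusoidal genes was -0.0138, against 0.205 in the main fit. Flt4, the receptor for VEGF-C on sinusoids and lymphatics, had 11.3, 10.1 and 19.0 CPM against 11.6, 15.6 and 9.39 CPM. Its groups were interleaved, with a log2 fold change of -0.14 (SE 0.35) that turned to 0.20 without control 3 and to 0.01 without adenine 3.

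Stab1, kept with the pan-endothelial genes, encodes a scavenger receptor that macrophages express too, and had 49.4, 50.5 and 53.1 CPM in the controls and 56.8, 59.8 and 59.2 CPM on adenine. Every adenine library lay above every control, but by little, the log2 fold change being 0.20 (SE 0.18). Macrophage markers moved in the same direction: all 10 tested markers had a positive fold change, 8 of them at an unadjusted p under 0.05 (4.22% of all genes), and their summed level ran from 221 to 241 CPM in the controls and from 366 to 695 CPM on adenine, none of the 11 markers in the table being at 0 in every library. Their part in the Stab1 values was not tested. Stab1 also shares its locus with Nt5dc2 on the opposite strand, whose 3348 reads set beside 3935 for Stab1 cannot be told apart with certainty where they overlap.

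Setting each gene against Cdh5 within the same library removes the scaling between libraries. For every 100 reads of Cdh5 there were 7.90, 8.87 and 10.4 reads of Flt4 in control 1 to 3 and 26.0, 17.8 and 19.3 in adenine 1 to 3. For Stab1 the numbers were 34.5, 44.3 and 29.1 against 127, 67.9 and 122. The ratios of Flt4 and Stab1 were higher in every adenine library than in any control, which for Flt4 comes with fewer Cdh5 reads and no clear difference in Flt4 itself. Stab2 had 8.30, 14.2 and 6.82 reads per 100 of Cdh5 in the controls and 66.4, 13.5 and 36.6 on adenine, with adenine 2 inside the control range. Gkn3 had 5.30, 13.3 and 6.61 against 2.27, 0 and 1.08, lower in every adenine library. Gja5 held its proportion to Cdh5 within the scatter, at 22.3, 23.9 and 20.6 against 29.1, 16.8 and 20.4.

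On the log2 scale, with 0.5 added to each count, the ratio to Cdh5 differed between the diets by 1.20 for Flt4, 1.52 for Stab1, 1.78 for Stab2, 0.34 for Gja4, -0.04 for Gja5, 0.63 for Efnb2 and -3.83 for Gkn3, the last depending on the added value because of the count of 0. An exact two-sided permutation test gave p = 0.1 for Flt4, Stab1 and Gkn3, which is the smallest value that 3 libraries against 3 allow, and p = 0.2 for Stab2, 0.4 for Efnb2, 0.5 for Gja4 and 0.8 for Gja5. Adjusted over these 7 ratios by Benjamini-Hochberg, the smallest exact p was 0.233. Cdh5 was taken as the reference after its values were seen, and all 7 ratios share its counts.

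**Figure D2:**
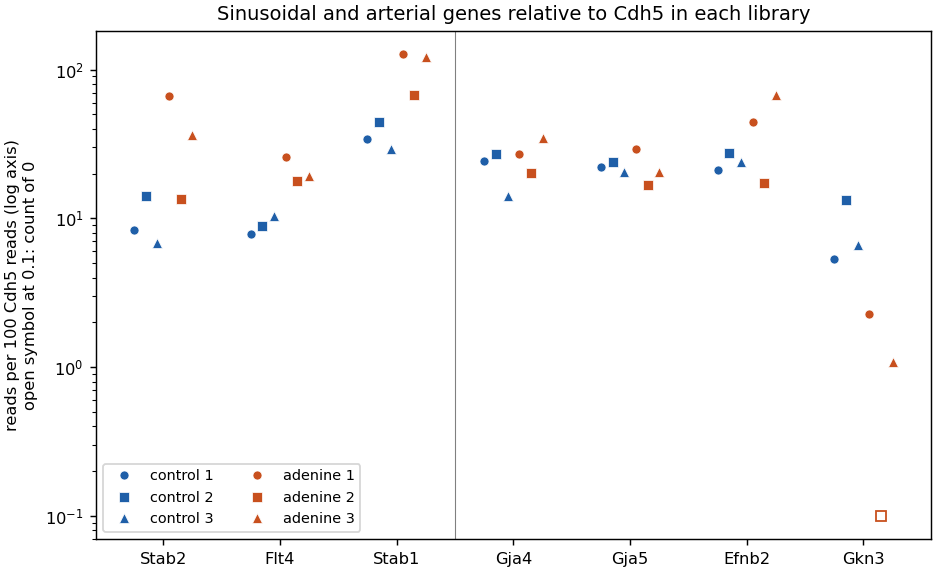
Reads of sinusoidal and macrophage-shared genes (left of the line) and arterial genes (right) per 100 reads of Cdh5 in each library, on a log axis. Flt4 and Stab1 have all adenine symbols above the control symbols, Gkn3 has them below, and the adenine and control symbols of Gja5 intermix.

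Per length, the endothelial genes covered a wide range of control levels. The mean deposited FPKM in the control group was highest for Plvap at 75.7, Ly6c1 at 64.3, Pecam1 at 45.8, Cldn5 at 45.8 and S1pr1 at 44.9, and lowest for Stab2 at 1.45, Flt4 at 1.54 and Notch1 at 1.98. On the adenine diet Plvap measured 40.0 FPKM and Pecam1 21.2 FPKM, and Stab2 2.23 FPKM. Ly6c1, an arteriolar and capillary surface antigen, had a log2 fold change of -0.82 (SE 0.28), and reads may be split between it and its close copy Ly6c2, which had 0.44 (SE 0.72), so its value is uncertain. Reads of Plvap and Egfl7 can likewise include some from Gtpbp3 and Agpat2 on the opposite strand. To these 1296 and 1129 reads were assigned, beside 8884 for Plvap and 6528 for Egfl7. Erg overlaps a long noncoding gene on its own strand, with 339 reads beside 1849 for Erg.

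**Figure D3:**
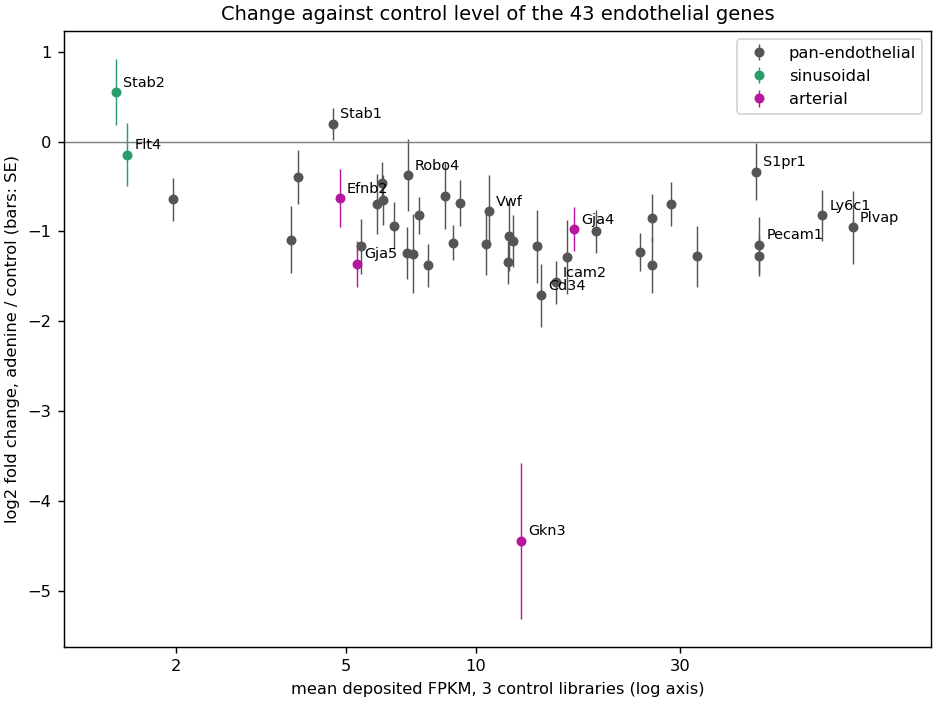
Log2 fold change with its standard error against the mean control FPKM on a log axis for the 43 genes, coloured by class. Points below -1 occur at low and high levels alike, Gkn3 stands alone at -4.45, and Stab2, Flt4 and Stab1 lie nearest to or above 0.

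The endothelial genes did not all follow the same course among the adenine libraries. Adenine 2 was the highest of the 3 in 33 of the 43 genes, and in 15 genes its CPM was over 1.5 times the mean of adenine 1 and adenine 3. The share of all genes with either pattern was not counted, so neither can be read as particular to the endothelial genes. Nos3 (2.72 times), Mmrn2 (2.63), Plvap (2.39), Robo4 (2.27), Ptprb (2.26) and Erg (2.21) had the widest gaps. In Dll4 (0.94 times), Sox18 (0.99), Emcn (1.04), Calcrl (1.05) and Cldn5 (1.16) adenine 2 lay close to that mean. Adenine 2 was also the adenine library with the most muscle RNA, as given above. The mean log2 level of the pan-endothelial genes relative to all libraries was 0.42, 0.33 and 0.69 in control 1 to 3 and -0.67, -0.12 and -0.65 in adenine 1 to 3, and that of the 16 muscle markers was 1.35, -0.37 and 2.09 in control 1 to 3 and -2.80, 1.75 and -2.02 in adenine 1 to 3. The level of the arterial genes was 0.70, 0.85 and 0.93 against -0.74, -1.06 and -0.69. Much of that gap came from Gkn3: without it the level of the other 3 genes was 0.50, 0.39 and 0.60 against -0.62, -0.51 and -0.36, and their median log2 fold change was -0.97. When the muscle level was added to the fit, the median of the 43 genes was -0.77 and 25 were lower at an unadjusted p under 0.05 (5.43% of all genes). Within adenine 2 and control 3, which have similar muscle levels, no separate test can be made with 1 library each.

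**Figure D4:**
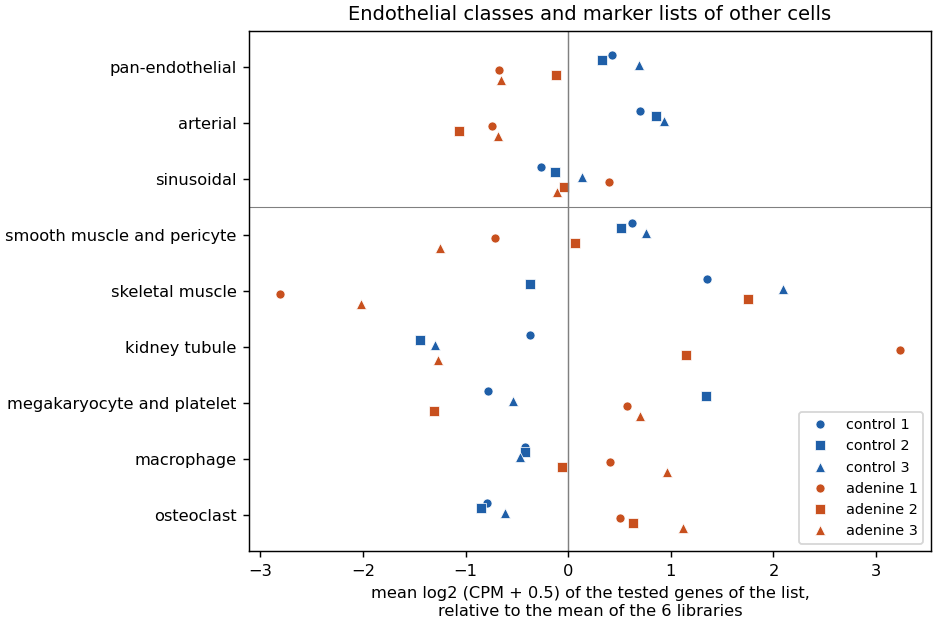
Mean log2 level of the endothelial classes (above the line) and of marker lists of other cells (below it) in each library, relative to the mean of the 6 libraries. Arterial and pan-endothelial genes separate the diets, the arterial gap being widened by Gkn3 and adenine 2 being the adenine library nearest to the controls in pan-endothelial genes, and the diets overlap in sinusoidal genes; muscle and kidney tubule levels vary within each diet.

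Kidney RNA can bring vessel RNA of its own, and its part in the endothelial values was tested only as a term in the fit. The podocyte gene Nphs1 was counted with 31 reads in adenine 1, with 0 reads in adenine 2 and adenine 3, and with at most 2 reads in any control library. With tubule RNA added to the fit as a term, 18 of the 43 endothelial genes were lower at an unadjusted p under 0.05 (3.07% of all genes), at a median of -0.99. Adenine 3, whose tubule level was 122 CPM and so within the control range, had a pan-endothelial level of -0.65, beside -0.67 in adenine 1. These are 1 library each, and no cause was tested from them.

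Genes of the cells that wrap around vessels were lower as well. All 16 smooth muscle and pericyte genes had a negative fold change (50% of all genes), with a median of -1.18. They ran from -2.37 for Tagln to -0.24 for Pdgfrb, and 11 were lower at an unadjusted p under 0.05 (6.49% of all genes). Cspg4, the pericyte proteoglycan NG2, had -1.16 (SE 0.25), Acta2, smooth muscle actin, -1.72 (SE 0.38), Mcam, an adhesion molecule of pericytes and endothelium, -1.32 (SE 0.32) and Tagln, transgelin, -2.37 (SE 0.68). These 4 were chosen for mention after their values were seen. By edgeR 0 of the 16 passed over all genes, and the authors' deposited table called 3 of them lower (0.937% of its genes). The summed level of the list was 2785 to 5065 CPM in the controls and 1149, 4861 and 1239 CPM in adenine 1 to 3, adenine 2 being within the control range. Des, desmin, which skeletal muscle also makes, supplied 3423 CPM of the adenine 2 sum. Without it, a choice made after its values were seen, the sums were 1994, 2045 and 2466 CPM in the controls and 981, 1439 and 793 CPM on adenine, every adenine library then lying below the controls.

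Markers of other cells of the shaft also had lower values on adenine, and their part in the endothelial result was not tested. These markers were counted at an unadjusted p under 0.05, at which 6.49% of all genes were lower and 4.22% higher. The median log2 fold change was -2.13 for 9 nerve and Schwann cell genes, of which 8 were lower, and -1.58 for 12 genes of fibroblasts, periosteum and tendon, of which 7 were. For 5 adipocyte genes it was -1.68, with 4 lower, and for 9 osteocyte genes -1.30, with 6 lower. Summed nerve levels ran from 394 to 920.1 CPM in the controls and from 159.9 to 208 CPM on adenine, and summed osteocyte levels from 267 to 567 CPM and from 131 to 189 CPM. Osteoclast genes had the opposite sign, with a median of 1.66 and 8 of 10 higher, and osteoblast genes a median of 0.51 with 1 of 8 higher. Red blood cell genes had a median of 0.42 with 0 of 7 lower or higher, and blood progenitor and lymphocyte genes -0.32 with 2 of 10 lower and 1 higher.

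The ligands that act on endothelium were described from a list of 27 genes, of which 25 were tested. Of these 22 had a negative fold change (50% of all genes), 9 were lower and 0 higher at an unadjusted p under 0.05 (6.49% and 4.22% of all genes), and the median was -0.59. By edgeR 0 passed over all genes, and the authors' deposited table called 1 lower (0.937% of its genes). Vegfc, the ligand of Flt4, had 16.7, 21.9 and 12.8 CPM in the controls and 7.76, 4.83 and 5.03 CPM on adenine, every adenine library being lower, with a log2 fold change of -1.54 (SE 0.34; adjusted p = 0.0297 in the authors' deposited table). Sema3g, an arterial semaphorin, had -0.95 (SE 0.26), the Notch ligand Jag2 -1.06 (SE 0.31) and the growth factor Fgf2 -1.35 (SE 0.48). Vegfa, the ligand of Kdr, had -0.33 (SE 0.35) with overlapping groups; it was chosen for mention after its value was seen.

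Of 35 other endothelial receptors and transporters 32 had a negative fold change (50% of all genes), with 14 lower and 0 higher at an unadjusted p under 0.05 (6.49% and 4.22% of all genes) and a median of -0.66. By edgeR 0 passed over all genes, and the authors' deposited table called 5 lower (0.937% of its genes). Aplnr, the apelin receptor of veins and sprouts, had 28.8, 25.7 and 36.5 CPM in the controls and 4.62, 10.5 and 9.09 CPM on adenine, a log2 fold change of -1.91 (SE 0.35). Procr, the endothelial protein C receptor, had -1.97 (SE 0.45), Thbd, thrombomodulin, -1.37 (SE 0.29) and Cd200, a surface glycoprotein, -1.11 (SE 0.22). Each of these 4 genes had all adenine libraries below the controls.

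Of 20 further transcription factors with a role in endothelium, 15 had a negative fold change (50% of all genes), 11 were lower and 0 higher at an unadjusted p under 0.05 (6.49% and 4.22% of all genes), and the median was -0.86. By edgeR 0 passed over all genes, and the authors' deposited table called 2 lower (0.937% of its genes). Klf2 and Klf4 are induced by blood flow, and many other cells express them too. Klf2 had 145.7, 88.0 and 142 CPM against 48.5, 63.0 and 58.8 CPM, and Klf4 had 96.6, 69.3 and 113 CPM against 36.0, 28.7 and 38.5 CPM. No adenine library reached a control value, and the log2 fold changes were -1.14 (SE 0.27) and -1.44 (SE 0.25). Hey2, a Notch target of arteries, had -1.65 (SE 0.43), and Bcl6b, an endothelial repressor, -1.47 (SE 0.40).

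To show the promoters of genes on either side of the pattern, RefSeq sequence of GRCm38.p6 was taken for the 250 bases before the annotated start, written 5′ to 3′ on the strand of the gene. The core of binding sites for ETS factors, the family of Erg and Ets1, was searched as AGGAAG and as CGGAAG on both strands; these do not overlap each other, and matches are in capitals, those on the opposite strand appearing as CTTCCT or CTTCCG. Emcn and Tie1 were taken as examples of genes with lower levels, with no rule set for the choice. Gkn3 is the gene with the steepest difference and Stab2 the gene with the highest fold change.
Emcn, chr3:137340828-137341077, plus strand: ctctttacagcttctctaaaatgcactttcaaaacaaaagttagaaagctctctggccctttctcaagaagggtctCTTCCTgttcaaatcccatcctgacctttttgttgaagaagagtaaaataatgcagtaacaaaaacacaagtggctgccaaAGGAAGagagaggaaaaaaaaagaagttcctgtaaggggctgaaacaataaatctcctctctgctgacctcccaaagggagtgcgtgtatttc
Tie1, chr4:118489850-118490099, minus strand: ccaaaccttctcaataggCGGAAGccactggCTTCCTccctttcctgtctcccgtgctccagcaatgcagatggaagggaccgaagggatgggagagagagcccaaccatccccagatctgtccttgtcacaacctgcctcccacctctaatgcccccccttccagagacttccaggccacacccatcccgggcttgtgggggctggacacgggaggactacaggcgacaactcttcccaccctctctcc
Gkn3, chr6:87388936-87389185, minus strand: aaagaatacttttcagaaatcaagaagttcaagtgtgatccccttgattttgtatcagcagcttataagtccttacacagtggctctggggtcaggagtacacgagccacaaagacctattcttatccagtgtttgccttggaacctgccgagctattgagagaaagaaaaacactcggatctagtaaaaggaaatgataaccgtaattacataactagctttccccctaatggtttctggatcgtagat
Stab2, chr10:87007943-87008192, minus strand: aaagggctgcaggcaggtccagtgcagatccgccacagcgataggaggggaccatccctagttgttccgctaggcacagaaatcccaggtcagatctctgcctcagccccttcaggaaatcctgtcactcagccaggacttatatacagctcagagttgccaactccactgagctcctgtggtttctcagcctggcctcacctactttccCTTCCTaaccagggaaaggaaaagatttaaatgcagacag

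Emcn and Tie1 each held 2 matches, Stab2 held 1 and Gkn3 none in this window, so a match was found on either side of the pattern. Among other genes with lower levels, Cldn5, Dll4, Kdr and Tek held none, and Cd34, Calcrl and Gja5 held 1 each. The Gja5 window is uncertain, since the bases after its annotated start were not found in a transcript of that symbol. Stab1, which had a positive fold change, held 2. Promoters in the RefSeq table were matched by symbol for 25 of the 43 genes, in 30 windows. AGGAAG occurred in 50.0% of these windows and in 29.5% of all 32851 windows, and CGGAAG in 6.7% and 13.6%. At least 1 of the motifs occurred in 14 of the 25 genes, that is in 50.0% of their windows against 39.2% of all windows. A match describes the letters only and is not evidence of binding.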

How the data were processed

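Flushed tibia cortex of wildtype mice was sequenced as polyA RNA, with 3 libraries per diet grouped by the treatment label. Per the submitters' processing notes, HISAT2 2.0.5, featureCounts 1.5.0-p3, DESeq2 and edgeR 3.22.5 were used, with no role or order. The sources used here give no build, annotation or strand setting, so reads of overlapping or antisense genes cannot be told apart with certainty. The authors deposited raw counts per gene and library, a normalized signal (counts divided by 1 size factor per library, not used in any test), FPKM, and a comparison table with log2 fold changes and raw and adjusted p-values. DESeq2 1.42.0, run on those counts, came within 6.47e-05 of the table's log2 fold changes and made as many calls, 361.

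The main test was edgeR 4.0.16 in R 4.3.3: filterByExpr with a minimum count of 10, TMM scaling, glmQLFit with robust moderation and a two-sided quasi-likelihood test with diet as the only term, on all 6 libraries, adjusted by Benjamini-Hochberg over the 15609 genes tested with a threshold of 0.05. A standard error (SE) is the size of a log2 fold change over the root of its F statistic, and CPM are TMM-scaled. The biological coefficient of variation was 0.439. Counting error and the number of libraries limit precision.

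The members, classes, lists and alternatives were chosen with earlier results of these data known. Values in every library are given for the sinusoidal and arterial genes, 7 reference genes, the genes called in the authors' deposited table and the 6 others of smallest p; from each pathway list the 4 genes of smallest p are named. Alternatives were other scaling (DESeq2 size factors), another test (DESeq2 Wald), all genes kept, fitting without robust moderation, a block for the replicate number, libraries left out, genes of other tissues left out, muscle or kidney level as a covariate, and wider classes.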

Additional observations from a re-analysis of the deposited data

How the results depend on the processing

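The number of endothelial genes passing over all genes, 0 in edgeR, was 13 with the DESeq2 Wald test, 3 with no filter on low counts, and 0 to 8 with 1 library left out. The shares of all genes passing in the lower direction were 0%, 0.939%, 0.218%, and 0% to 1.82%, in the same order. The number lower at an unadjusted p under 0.05 was 32 in the main fit (6.49% of all genes). It was 14 without control 3 and adenine 1 together (2.32%) and 18 with tubule RNA as a term in the fit (3.07%). With 1 library left out it was 21 to 36 (3.23% to 14.1% of all genes). With 1 library left out the median log2 fold change ran from -1.15 to -0.877 for the 43 genes, from -1.18 to -0.877 for the pan-endothelial, from -1.29 to -1.11 for the arterial and from 0.0128 to 0.355 for the sinusoidal genes. The median of the 43 was -0.77 with the muscle level as a covariate, when the pan-endothelial median was -0.754; the latter was -0.787 without control 3 and adenine 1 together. With wider classes the arterial median was -0.896, beside -1.10 for the pan-endothelial genes. Without Gkn3, a setting chosen after seeing the data, the arterial median was -0.973. The cause of these shifts was not tested. Signs turned for Flt4 (0.219 without control 3 and adenine 1 together, 0.211 with the muscle covariate, and -0.367 to 0.197 with 1 library left out, where it was 0.0134 without adenine 3), Robo4 (0.014 and 0.121 under the first 2 of these), S1pr1 (0.148 without control 3 and adenine 1 together) and Stab2 (-0.0088 with the muscle covariate); no other of the 43 genes changed sign under any alternative run. Same-numbered libraries of the diets had correlations of -0.0394, -0.452 and -0.165 in their deviations from the group means, and no control library correlated best with its own number, so the numbers do not pair them. With the replicate number as a block, 25 genes were lower at an unadjusted p under 0.05 (3.76% of all genes). In that fit 0 passed over all genes and the median was -1.07. Low counts limit Gkn3 on the adenine diet. Stab2 and Flt4 were low per length, at mean control levels of 1.45 and 1.54 FPKM, and their SE were 0.37 and 0.35.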

Other observations

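Lymphatic vessels share many of the genes above and were followed with 7 markers of their own. Prox1, the transcription factor that defines lymphatic endothelium, was counted with 47, 13 and 92 reads in control 1 to 3 and 1, 13 and 0 reads in adenine 1 to 3, and Lyve1, the hyaluronan receptor of lymphatic capillaries, with 146, 29 and 150 against 27, 52 and 28. Ccl21a, a lymphatic chemokine, had 500, 201 and 285 reads against 27, 68 and 0. These genes were chosen for mention after their values were seen. Prox1 and Lyve1 were lowest in control 2 among the controls and highest in adenine 2 among the adenine libraries, as was the muscle level. The part of other cells in these counts was not tested. Of Prox1, Lyve1 and Ccl21a, the last alone separated the diets, with every adenine library below every control (8.86% of all genes). A negative log2 fold change was measured for 6 of the 7 markers (50% of all genes), the exception being Foxc2 at 0.15 (SE 0.38). Among the 7, 1 was lower at an unadjusted p under 0.05 (6.49% of all genes). By edgeR 0 passed over all genes, and the authors' deposited table called 0. Pdpn, which osteocytes also express, lay below all controls as well, with a log2 fold change of -0.83 (SE 0.40).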
